A study of Sus scrofa with 9 samples.

Results

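CD3+CD4+CD8+ T cells from the blood of sows, called double positive here, were set against CD3+CD8+ T cells, called the CD8 fraction. The members are 6 of the 9 microarrays of the study, 3 per fraction, chosen by the sorted fraction that the labels give. The other 3 arrays, of CD3+CD4+ cells called the CD4 fraction, entered the fit and stand beside the results. All fractions were sorted from peripheral blood mononuclear cells of sows without a stated treatment, and the sources used here do not give age, breed or number of sows. The labels call the arrays biological replicates but do not tie them to animals, so the p-values measure the spread between these samples.

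CD4 and CD8 are coreceptors that bind MHC class II and class I molecules during recognition by the T cell receptor. CD4 marks helper T cells, which act on other cells through cytokines and surface ligands such as CD40 ligand, and CD8 marks cytotoxic T cells, which kill target cells. In pigs, unlike in most mammals, T cells carrying both coreceptors are common in blood and are regarded as helper cells with a memory or effector history.

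Levels are log2 signals relative to the 75th percentile of each array, so 0 is that percentile and a step of 1 is a doubling. Each gene is represented by 1 probe, and levels of different genes are not comparable. Differences are double positive minus CD8 fraction, with the standard error (SE) and adjusted p of a limma fit over the 15409 probes that every array of double positive cells, or every array of the CD8 fraction, showed well above background. A probe was called where the adjusted p was under 0.05. Only 3234 tested probes (21.0%), for 1465 genes, carried a gene name here. In bulk samples such as these, fewer cells of a type and less RNA per cell cannot be told apart.

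The 75th percentile signal spanned 18.9 to 42.4 for double positive cells, 15.2 to 83.7 for the CD4 fraction and 18.3 to 29.6 for the CD8 fraction. An array showed 32.6% to 53.7% of its 43603 probes well above background. Slide 1 held double positive array 1, slide 2 double positive array 2 with CD8 arrays 1 and 2, and slide 3 double positive array 3 with CD8 array 3, the CD4 arrays being on slides 2 and 3.

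The sorting markers were read first. CD4 stood at 2.79, 2.54 and 1.10 on the double positive arrays 1 to 3, at 2.36, 1.93 and 1.48 in the CD4 fraction and at -3.26, -0.79 and -2.05 on the CD8 arrays. Every double positive array lay above every CD8 array, the CD4 arrays lay within the span of the double positive ones, and the probe was well above background on 1 of 3 CD8 arrays. CD4 was called higher in double positive cells than in the CD8 fraction by both of its probes (fitted log2 difference 4.18, SE 0.64, 3 arrays per fraction, adjusted p = 0.0191 by limma). With 2 CD8 arrays not well above background, no fold is given. Against the CD4 fraction it differed by 0.22 (95% interval -1.16 to 1.59).

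CD8A, the alpha chain of CD8, stood at 4.32, 2.84 and 3.27 in double positive cells, at 5.82, 5.53 and 4.73 in the CD8 fraction and at 0.29, 0.95 and -0.40 in the CD4 fraction. The double positive arrays lay between the other fractions with no overlap on either side. The difference from the CD8 fraction was -1.88 (SE 0.49, 95% interval -2.95 to -0.81) and was not called (adjusted p = 0.206, or 0.0908 with the replicate number as a block), while the level was above that of the CD4 fraction by 3.20 (adjusted p = 0.0173). The CD3 chains, which carry the signal of the T cell receptor, were well above background on all 9 arrays and none was called, with differences of 0.71 for CD3D, 0.10 for CD3E and -0.70 for CD3G.

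In all, 57 probes (0.37%) were called, 23 higher (0.149%) and 34 lower (0.221%) in double positive cells. An unadjusted p under 0.05 was reached by 1021 probes. Of the called probes 21 carried a gene name, for 15 genes. The 6 genes called higher were CD40LG, CD4, IL6R, KLF4, IL6ST and ANXA2, and the 9 called lower were BEX1, UCHL1, CD96, LIMA1, LCORL, CDH1, ANGPT2, CD79A and SCD. CD4, IL6R and IL6ST entered the test through the double positive arrays alone. BEX1, UCHL1, CD96, LIMA1, LCORL, CDH1 and ANGPT2 entered through the CD8 arrays alone. Among probes well above background on all 6 arrays, 5 of the 15 genes had a value. There CD40LG and KLF4 kept their calls, and ANXA2, CD79A and SCD lost theirs (adjusted p = 0.06985, 0.06985 and 0.06319 by limma). The double positive and CD8 arrays did not overlap for any of the 57, against 9.89% of all tested probes (4.71% with double positive cells above and 5.18% with them below). The 57 were picked on these same arrays, so the lack of overlap is no separate support for them.

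With slide as a block, where double positive array 1 no longer contributes, 2 probes passed, neither of them named, and the 15 genes gave adjusted p from 0.0695 to 0.272. With the replicate number as a block 86 probes passed (0.558%; 42 higher, 0.273%, and 44 lower, 0.286%), including 55 of the 57. Single arrays carried much of the count. It was 3 without CD8 array 2, 6 without double positive array 1, 9 without double positive array 2, 18 without CD8 array 3, 21 without CD8 array 1, 26 without CD4 array 2, 36 without double positive array 3 and 38 without CD4 array 3. Of the 15 genes, 1 was still called without CD8 array 2 or without double positive array 1 and 2 without double positive array 2. The other numbers were 4 without CD8 array 1, 6 without CD8 array 3 or CD4 array 2, 10 without CD4 array 3, 11 without double positive array 3 and 15 without CD4 array 1. None of the 15 changed direction, which was fixed in advance because their double positive and CD8 arrays did not overlap.

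CD40LG and CD4 were the called genes of the helper lineage, both higher in double positive cells than in the CD8 fraction. CD40LG, the CD40 ligand through which helper cells activate B cells and dendritic cells, stood at 5.06, 4.13 and 3.20 on the double positive arrays, 2.69, 3.09 and 2.19 in the CD4 fraction and 0.91, -0.81 and -1.34 on the CD8 arrays. All double positive arrays were above all arrays of both other fractions. It was 23.3-fold higher than in the CD8 fraction (log2 4.54, SE 0.61, adjusted p = 0.00868). Against the CD4 fraction the difference was 1.47 (95% interval 0.16 to 2.79) and was not called (adjusted p = 0.875). Within slides 2 and 3 the differences from the CD8 fraction were 4.08 and 4.54. The CD40LG call was lost without double positive array 1 (4.08, adjusted p = 0.0522) and without CD8 array 2 (4.34, adjusted p = 0.0679). The CD4 call was lost without double positive array 1 or 2 and without CD8 array 1 or 3 (adjusted p = 0.102, 0.0849, 0.0518 and 0.0793), with differences from 3.56 to 4.17.

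GATA3, the transcription factor of the helper lineage and of type 2 helper cells, stood at 3.59, 2.95 and 2.47 in double positive cells, 2.80, 2.85 and 2.22 in the CD4 fraction and 2.17, -0.91 and 0.64 in the CD8 fraction. The double positive arrays were above the CD8 arrays without overlap, but the CD8 arrays spread widely and the difference of 2.37 (SE 0.64) was not called (adjusted p = 0.219). CD28, the costimulatory receptor for CD80 and CD86, stood at 3.85, 3.53 and 3.04 against 2.80, 1.52 and 1.70 in the CD8 fraction, a difference of 1.47 (SE 0.45, adjusted p = 0.332), also without overlap. ICOS, an inducible costimulatory receptor of helper cells, gave 1.15 (SE 0.52, adjusted p = 0.745), and its arrays overlapped.

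Of the 20 genes of the helper lineage list, 8 were on the array and 5 were tested. The 2 called, CD40LG and CD4, were higher (0.149% of all tested probes were), 3 did not pass, and 4 had all double positive arrays above all CD8 arrays (4.71% of all tested probes did). CD4 is a sorting marker and entered the test through the double positive arrays alone. Without it 1 of 4 tested genes was called higher and 3 had all double positive arrays above. Of all 1465 named genes tested, 6 were called higher and 73 had all double positive arrays above. The median difference was 2.37, or 1.92 without the sorting marker CD4, against 0.02 over all 1465 named genes tested. Within slides 2 and 3 the median was 2.32 and 2.00. Without CD8 array 2 it was 1.60 and without CD8 array 1 it was 3.14. Against the CD4 fraction none of the 5 was called (where 0.286% of all probes were) and the median was 0.41. These comparisons share the double positive arrays.

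**Figure D1:**
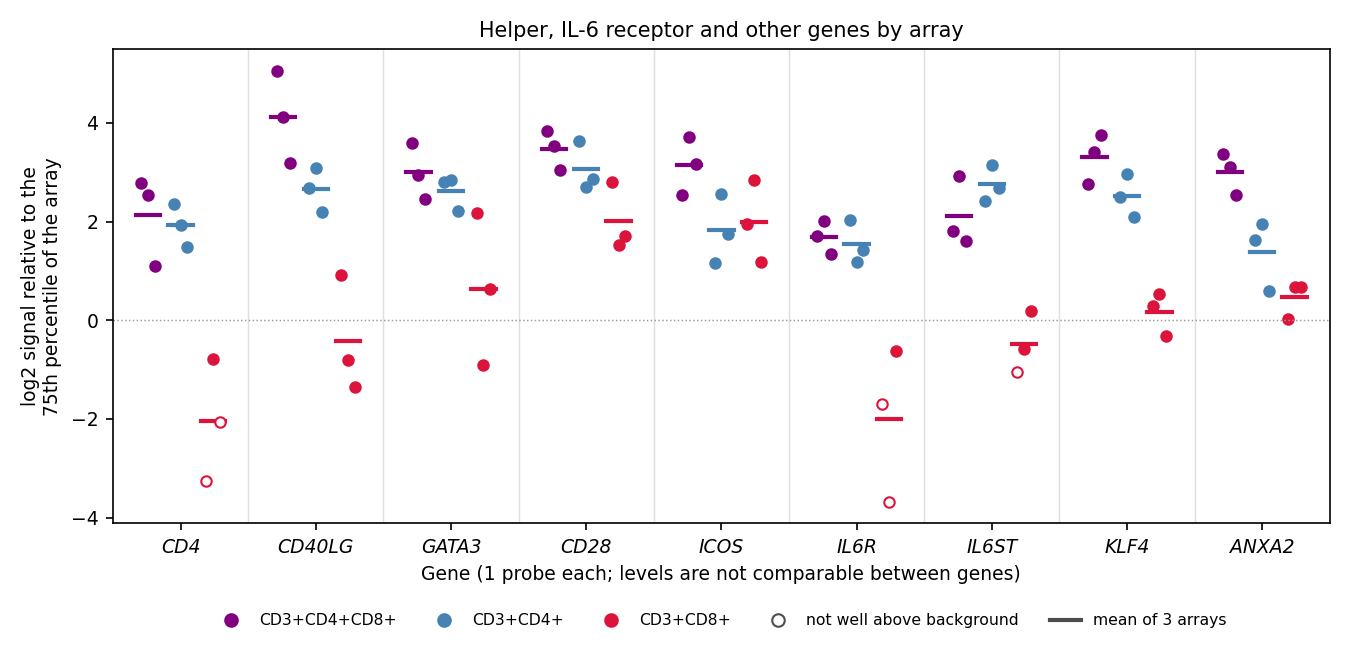
Log2 signal relative to the 75th percentile of the array for 9 genes, with 1 point per array, the 3 fractions side by side and a bar at the mean of 3 arrays. Open points were not well above background. CD4, IL6R and KLF4 sit at like heights in CD3+CD4+CD8+ and CD3+CD4+ cells and lower in CD3+CD8+ cells, and CD40LG is highest in CD3+CD4+CD8+ cells on every array.

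The binding and the signalling chain of the interleukin 6 receptor were both called higher in double positive cells, and both entered the test through the double positive arrays alone. IL6R, the chain that binds interleukin 6, stood at 1.71, 2.01 and 1.35 on the double positive arrays, 2.03, 1.17 and 1.42 in the CD4 fraction and -1.70, -3.67 and -0.62 on the CD8 arrays. The fractions did not overlap, and the probe was well above background on 1 of 3 CD8 arrays. The fitted difference from the CD8 fraction was 3.69 (SE 0.65, adjusted p = 0.0395), given with no fold for the same reason, and that from the CD4 fraction was 0.15. Of the 3 probes of the gene, 2 were called, and 3 with the replicate block. The difference was 2.85 without CD8 array 2 (adjusted p = 0.096), and 4.70 and 1.97 within slides 2 and 3. The IL6R call was lost without any 1 double positive array, without CD8 array 1 or 2 and without CD4 array 2 (adjusted p = 0.0553 to 0.149).

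IL6ST, which encodes the signalling chain gp130, stood at 1.82, 2.92 and 1.61 in double positive cells, 2.43, 3.15 and 2.69 in the CD4 fraction and -1.05, -0.59 and 0.20 in the CD8 fraction. The lowest double positive array was above the highest CD8 array, and 2 of 3 CD8 arrays were well above background. The fitted difference from the CD8 fraction was 2.60 (SE 0.48, adjusted p = 0.0401), called for 1 of its 2 probes, and that from the CD4 fraction was -0.64. No fold is given, because a CD8 array was not well above background. The difference was 2.19 without double positive array 2 (adjusted p = 0.192) and 3.74 and 1.41 within slides 2 and 3. The IL6ST call was lost without any 1 double positive or CD8 array (adjusted p = 0.0531 to 0.192) and without CD4 array 2 or 3 (0.075 and 0.067). The kinases and transcription factors downstream of the receptor were not called. Among them JAK1 gave -0.29 (SE 0.35) and TYK2 gave 0.88 (SE 0.40). Of the 6 tested genes of the pathway 2 were called higher and the median was 0.48, against 6 called higher and a median of 0.02 over all 1465 named genes tested.

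KLF4, a transcription factor linked to quiescence of T cells, stood at 2.76, 3.41 and 3.76 on the double positive arrays, 2.50, 2.96 and 2.10 in the CD4 fraction and 0.29, 0.53 and -0.31 on the CD8 arrays. All its double positive arrays were more than 2 above every CD8 array, and the CD4 arrays lay between or level with the double positive ones. It was 8.84-fold higher than in the CD8 fraction (log2 3.14, SE 0.43, adjusted p = 0.00868), with 4 of its 7 probes called and 6 with the replicate block, and the 7 probes gave 2.59 to 3.83. The call was lost without double positive array 2 (3.09, adjusted p = 0.0516) and without CD8 array 2 (3.32, adjusted p = 0.0506). It was the one gene of the 15 whose call held with another background correction (adjusted p = 0.0365).

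KLF2, a relative that maintains the recirculation of naive T cells, differed by 0.27 (SE 0.47). Of 11 tested genes of naive and quiescent cells, KLF4 was called higher and 10 did not pass, with a median of 0.27. Of all 1465 named genes tested, 6 were called higher and the median was 0.02. LEF1, a Wnt-responsive transcription factor high in naive cells, stood at 6.68, 6.71 and 7.20 against 7.90, 8.66 and 7.97 in the CD8 fraction and 7.80, 8.72 and 8.44 in the CD4 fraction. Every double positive array was below every array of the other fractions, yet the difference was not called (-1.31, SE 0.35, adjusted p = 0.219).

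ANXA2, which encodes the membrane-binding protein annexin A2, stood at 3.38, 3.11 and 2.54 in double positive cells, 1.62, 1.95 and 0.59 in the CD4 fraction and 0.03, 0.68 and 0.68 in the CD8 fraction. The double positive arrays were highest without overlap. It was 5.85-fold higher than in the CD8 fraction (log2 2.55, SE 0.46, adjusted p = 0.0401), and 1 of its 3 probes was called, with the other two at 2.05 and 2.10. The difference was 2.37 without double positive array 1 (adjusted p = 0.183). The call was lost without double positive array 1 or 2, any 1 CD8 array or CD4 array 2 (adjusted p = 0.0593 to 0.183). In the list of memory and adhesion genes, 1 of 9 tested genes was called higher, 8 did not pass and 8 had positive differences, with a median of 0.87. Of all 1465 named genes tested, 6 were called higher and 757 had positive differences, with a median of 0.02. ITGB1, the integrin beta 1 chain that is raised on memory T cells, stood at 8.32, 7.92 and 7.79 against 7.00, 6.52 and 4.62, a difference of 1.96 (SE 0.58, adjusted p = 0.294), with 2 of 6 probes called under the replicate block.

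Among genes lower in double positive cells, CD96 was the one named gene of the CD8 lineage list to be called. CD96, a receptor of cytotoxic T and natural killer cells that binds the poliovirus receptor, stood at 1.74, 2.66 and 1.36 on the CD8 arrays, -2.11, -2.46 and -2.58 on the double positive arrays and -3.37, -1.26 and -2.00 on the CD4 arrays. It was well above background on 3 of 3 CD8 arrays and on no array of the fractions bearing CD4. The level in double positive cells was at least 14.5-fold lower than in the CD8 fraction (fitted log2 -4.30, SE 0.61, adjusted p = 0.0109). Such a bound sets the mean of the brighter fraction against the lowest signal well above background on each array of the other, or against the probe's own signal where that is higher. The call was lost without double positive array 1 or 2 and without CD8 array 1 or 2 (adjusted p = 0.0522, 0.0516, 0.0508 and 0.0986), with differences from -4.44 to -3.94. Of the 12 genes of the CD8 lineage list only CD8A and CD96 were on the array by name, both without overlap where 5.18% of all tested probes had double positive cells below. CD8A is a sorting marker and CD96 entered the test through the CD8 fraction alone, so their median of -3.09, or -2.87 with CD96 at its bound, describes these 2 genes and not the lineage.

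BEX1, a small signalling adaptor best known in neurons, stood at 0.63, 1.05 and 0.64 on the CD8 arrays, 0.69, -1.52 and -1.37 in the CD4 fraction and -4.42, -4.57 and -3.62 on the double positive arrays. No double positive array was well above background, so these last values have no order. BEX1 was at least 6.55-fold lower than in the CD8 fraction (fitted -4.98, SE 0.65, adjusted p = 0.00868) and at least 2.31-fold lower than in the CD4 fraction, where 2 of 3 arrays were well above background, which was not called (adjusted p = 0.0501). The call was lost without double positive array 1 (adjusted p = 0.0522) and without CD8 array 2 (adjusted p = 0.0679). UCHL1, a ubiquitin hydrolase, was well above background on 3 CD8 arrays, at 1.41, 1.60 and -0.08, and on no array of either other fraction. It was at least 7.54-fold lower than in the CD8 fraction (adjusted p = 0.041), a call that the replicate block did not keep (adjusted p = 0.0509). The UCHL1 call was also lost without double positive array 1 or 2, any 1 CD8 array, or CD4 array 2 or 3 (adjusted p = 0.0562 to 0.324).

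A further 4 called genes were not well above background on any double positive array but were on all CD8 arrays. LIMA1, an actin-binding protein, was at least 7.46-fold lower (adjusted p = 0.0402), and the replicate block took its adjusted p to 0.0521. LCORL, a nuclear protein associated with body size, was at least 4.93-fold lower (adjusted p = 0.0327). ANGPT2, the vessel growth factor angiopoietin 2, was at least 4.76-fold lower (adjusted p = 0.0295), and CDH1, the adhesion molecule E-cadherin, at least 2.78-fold lower (adjusted p = 0.0401). LIMA1, LCORL and ANGPT2 were well above background on all 3 CD4 arrays and CDH1 on 2. ANGPT2 was called lower than in the CD4 fraction too, by at least 4.78-fold (adjusted p = 0.0227), and LIMA1 was at least 6.31-fold lower there but not called (adjusted p = 0.061). Each of these 4 calls was lost without CD8 array 2 (adjusted p = 0.172 for LCORL and 0.143 for the others) and without double positive array 1 (0.0773 for ANGPT2, 0.134 for LCORL and 0.172 for LIMA1 and CDH1). All 4 were also lost without double positive array 2 (adjusted p = 0.11 to 0.162) and without CD8 array 3 (0.0912 to 0.106).

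**Figure D2:**
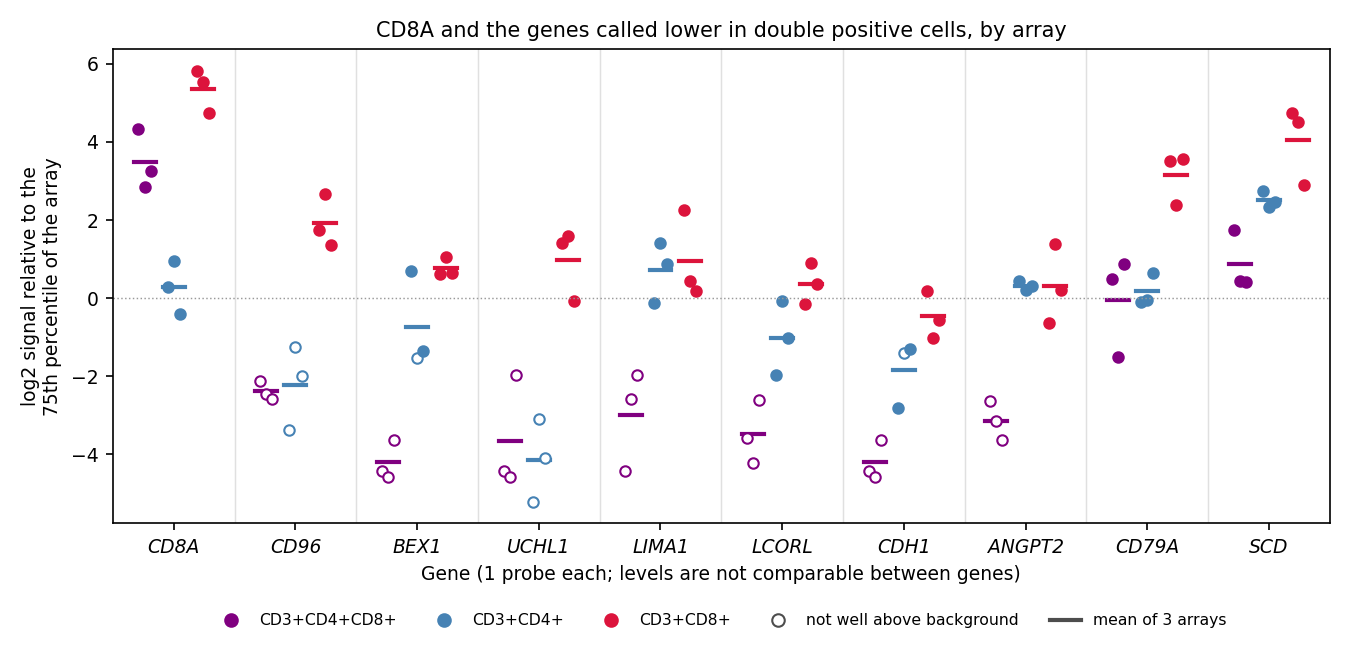
Log2 signal relative to the 75th percentile of the array for CD8A and the 9 genes called lower in CD3+CD4+CD8+ cells, with 1 point per array, the 3 fractions side by side and a bar at the mean of 3 arrays. Open points were not well above background: CD96 and UCHL1 are open in both fractions bearing CD4, while LIMA1, LCORL and ANGPT2 are open in CD3+CD4+CD8+ cells alone.

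Detection calls rest on each array's own background and not on the fit. Of the 43603 probes, 47 (0.108%) were well above background on all 3 CD8 arrays and on no double positive array. They named 9 genes, the 7 just described with KIT, the stem cell factor receptor, and ATP6V1G2, a subunit of a proton pump. KIT stood at 0.23, -0.45 and -0.39 on the CD8 arrays and was at least 3.33-fold lower in double positive cells, and ATP6V1G2 at least 4.07-fold lower, but neither was called (adjusted p = 0.204 for both). The reverse held for 145 probes (0.333%) and 29 named genes, including IL6R and KLF4 by 1 probe each and CD9, a tetraspanin, by 2. By the CD9 probe with the highest mean the gene differed by 2.06 (SE 0.59, adjusted p = 0.268). With an array left out the counts ranged from 62 to 165 and from 215 to 885. Such counts can only stay or rise, because fewer arrays have to meet the condition.

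Lower genes were also found among those detected in every fraction. CD79A, the signalling chain of the B cell receptor, stood at 3.51, 2.40 and 3.57 on the CD8 arrays, 0.49, -1.50 and 0.87 on the double positive arrays and -0.09, -0.04 and 0.65 on the CD4 arrays. The CD8 arrays were highest without overlap, and double positive cells differed from the CD4 fraction by -0.22. It was 9.21-fold lower than in the CD8 fraction (log2 -3.20, SE 0.60, adjusted p = 0.041), and its differences within slides 2 and 3 were -4.45 and -2.70. The call was lost when any double positive or CD8 array but double positive array 3 was left out (adjusted p = 0.107 to 0.157), with differences from -3.58 to -2.48, and without CD4 array 2 or 3 (0.0755 and 0.0559).

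Other B cell genes were read beside it. Of 16 on the list, 7 were on the array. Among them BLNK, FCER2 and CD40 were not well above background on any of the 9 arrays, MS4A1 was on 2 double positive, 1 CD4 and 2 CD8 arrays, and BTK on 2 double positive, no CD4 and 2 CD8 arrays. The summed linear level of the 6 genes other than CD79A, relative to the 75th percentile, was 0.397 to 2.54 on the double positive arrays, 0.342 to 1.16 in the CD4 fraction and 0.952 to 2.10 on the CD8 arrays, so the double positive and CD8 ranges overlapped. With CD79A the sums were 0.752 to 4.36, 1.28 to 2.63 and 6.22 to 13.5. The part of B cells in the CD79A difference was not tested.

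SCD, the desaturase that makes monounsaturated fatty acids, stood at 4.74, 4.50 and 2.89 on the CD8 arrays, 2.74, 2.34 and 2.47 in the CD4 fraction and 1.75, 0.45 and 0.41 on the double positive arrays. The 3 fractions did not overlap, with double positive cells lowest. SCD was 9.02-fold lower than in the CD8 fraction (log2 -3.17, SE 0.53, adjusted p = 0.0295), with 2 of 6 probes called and the 6 probes between -3.34 and -1.78, and it differed from the CD4 fraction by -1.65 (adjusted p = 0.449). Without CD8 array 2 the difference was -2.95 (adjusted p = 0.143). The SCD call was lost without any 1 double positive array, CD8 array 1 or 2 or CD4 array 2 (adjusted p = 0.0522 to 0.143). Of 10 tested genes of lipid synthesis SCD alone was called, 9 did not pass and the median was 0.11. Of all 1465 named genes tested, 9 were called lower and the median was 0.02. SQLE, an enzyme of sterol synthesis, gave -0.94 (SE 0.50), ACLY, which supplies acetyl-CoA, -0.31 (SE 0.37), and ACSL1, which activates fatty acids, 0.90 (SE 0.47).

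Genes of effector T cells were compared next, beginning with a pair chosen after their values were seen. ADGRG1, an adhesion receptor of cytotoxic lymphocytes, stood at 6.28, 5.17 and 5.52 in double positive cells and 5.55, 6.42 and 4.79 in the CD8 fraction, and at -0.19, -2.39 and -0.36 in the CD4 fraction. The double positive arrays lay within the span of the CD8 arrays, and the fractions differed by 0.07 (95% interval -1.22 to 1.36), a sign that turned without double positive array 1 (-0.24) and with slide as a block (-0.31). S1PR5, through which effector lymphocytes sense sphingosine phosphate, differed by 0.42 (95% interval -1.07 to 1.90), a sign that turned in the same way (-0.33 and -0.35). These intervals allow differences of more than a doubling either way for both genes.

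IFNG, the gene of interferon gamma, stood at 1.85, 1.22 and 1.28 in double positive cells and at 1.82, 0.91 and 0.06 in the CD8 fraction, with overlap and a difference of 0.52 (95% interval -0.60 to 1.64). CCL5, a chemokine of effector T cells, stood at 3.82, 2.79 and 1.82 against 4.50, 4.44 and 2.67, a difference of -1.06 (95% interval -2.61 to 0.48). KLRK1, the activating receptor NKG2D, stood at 3.01, 0.69 and 2.99 against 4.32, 3.24 and 2.63, a difference of -1.17 (95% interval -2.53 to 0.20). Each of these intervals includes 0, and those of CCL5 and KLRK1 reach more than a 4-fold difference on the side of lower double positive levels. The same double positive arrays were called above the CD4 fraction for IFNG, CCL5 and KLRK1 (adjusted p = 0.00558, 0.0227 and 0.00558), where IFNG and KLRK1 were well above background on 1 of 3 CD4 arrays and CCL5 on 2 of 3, so no fold is given.

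Genes of cytotoxic granules had no call. Of the 8 tested, none passed (0.37% of all probes did), 6 had negative differences and the median was -0.33. Of all 1465 named genes tested, 708 had negative differences and the median was 0.02. GZMH, which encodes a granzyme, stood at 4.32, 3.19 and 3.02 in double positive cells, 4.54, 6.57 and 5.26 in the CD8 fraction and 0.07, 2.15 and 0.72 in the CD4 fraction. Its double positive arrays lay between the other fractions without overlap, and the difference from the CD8 fraction was -1.95 (SE 0.62, adjusted p = 0.396). GZMM, another granzyme, gave -0.97 (SE 0.70), NKG7, a granule membrane protein, -0.45 (SE 0.49), and TNFSF10, the death ligand TRAIL, 0.46 (SE 0.53).

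Among 7 tested receptors and adaptors of natural killer cells none was called and the median was -0.38. FCER1G, an adaptor of Fc and natural killer receptors, stood at 2.23, 1.93 and 1.85 on the CD8 arrays but at -0.40, -2.46 and 1.88 on the double positive arrays, a difference of -2.33 (SE 0.82, adjusted p = 0.509). Double positive array 3 was level with the CD8 arrays and array 2 was not well above background. FCGR3A, the Fc receptor CD16, gave 0.73 (SE 0.54) and HCST, the adaptor DAP10, -0.66 (SE 0.43). Of the defining markers of natural killer cells, NCR1 was not well above background on any array and KLRB1 was on 1 CD8 array. CD163L1, a marker of gamma delta T cells in pigs, was not well above background on any array.

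**Figure D3:**
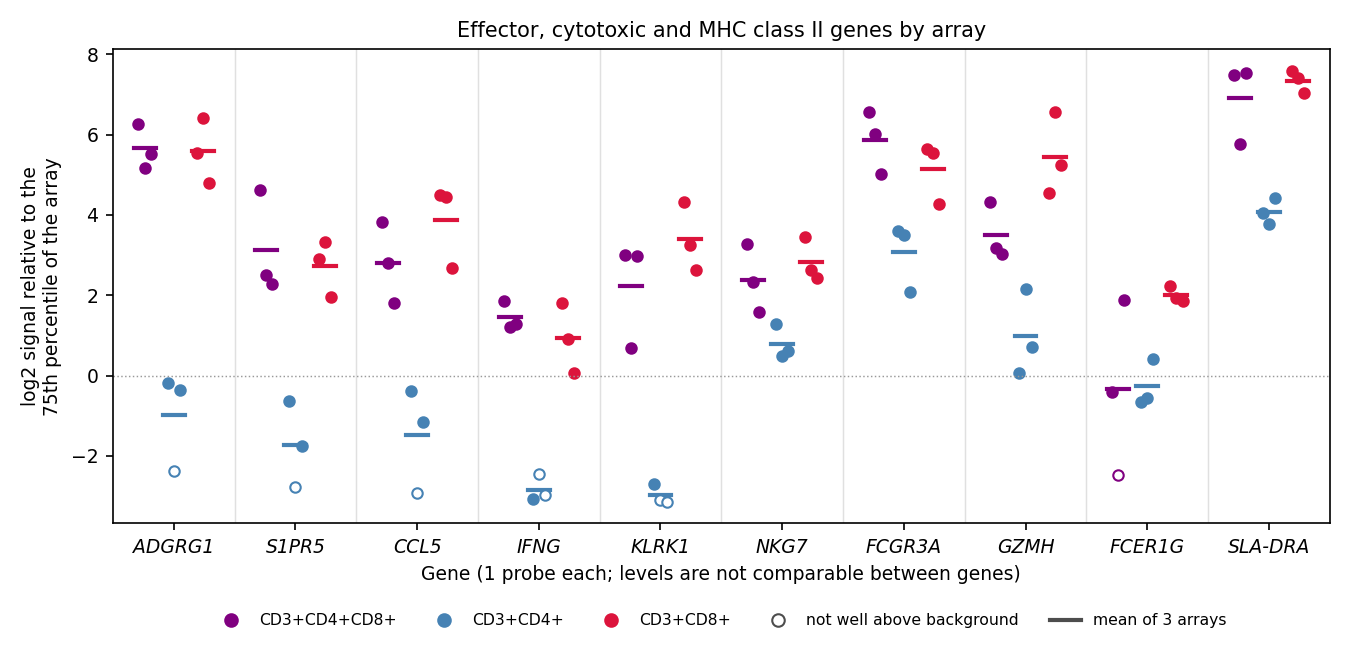
Log2 signal relative to the 75th percentile of the array for 10 effector, cytotoxic and MHC class II genes, with 1 point per array, the 3 fractions side by side and a bar at the mean of 3 arrays. Open points were not well above background. ADGRG1, S1PR5 and IFNG overlap between CD3+CD4+CD8+ and CD3+CD8+ cells, and GZMH lies between the other fractions.

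Chemokine receptors, cytokines and their receptors were not called, with medians of 0.25 for 9 genes of chemokines and trafficking, 0.08 for 7 cytokines and 0.42 for 6 cytokine receptors other than that of interleukin 6. CCR2, a receptor of inflammatory chemokines, stood at 1.32, 1.49 and 1.01 against 0.07, -2.33 and -0.64 (2.24, SE 0.58, adjusted p = 0.204), and IL18R1, the interleukin 18 receptor, at 1.20, 0.51 and 1.82 against 0.29, -3.67 and -0.97 (2.63, SE 0.83, adjusted p = 0.39). Both were without overlap, with CD8 array 2 lowest and not well above background. TNF, the gene of tumour necrosis factor, gave 2.28 (SE 0.88, adjusted p = 0.609), with CD8 array 1 at 3.16 and the other two CD8 arrays at -0.99 and -0.47. IL2RG, the chain shared by several cytokine receptors, gave 1.43 (SE 0.49) and CCR9, a gut-homing receptor, gave -1.39 (SE 0.55). For IL12RB1, a chain of the interleukin 12 receptor, the difference of 0.48 turned to -0.12 without CD8 array 3.

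None of 8 tested MHC class II genes, which present peptides to helper T cells, was called, and the median was 0.15. SLA-DRA, the alpha chain of the DR molecule, stood at 7.48, 5.76 and 7.52 in double positive cells and 7.59, 7.42 and 7.03 in the CD8 fraction, with overlap and a difference of -0.43 (95% interval -1.41 to 0.56) that turned to 0.15 without double positive array 2. SLA-DMA, which helps load peptides, gave 0.56 (SE 0.51) and SLA-DQA1, the DQ alpha chain, 0.31 (SE 0.50), and both turned without CD8 array 2 (-0.06 and -0.19). All 8 genes had every double positive array above every CD4 array, where 5.43% of all probes did.

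The 6 tested genes of the T cell receptor complex had a median of 0.06 and no call. Of 11 genes of the immediate early and heat shock responses, which sorting can induce, none was called and the median was -0.02, with FOS, an immediate early gene, at 1.41 (SE 0.66), HSPH1, a heat shock protein, at 1.31 (SE 0.39), and the chaperone genes HSPE1 at -0.91 (SE 0.38) and HSP90AB1 at -0.90 (SE 0.38). Of 15 monocyte and granulocyte genes on the array, 5 were tested and none was called, with a median of 0.96. FGL2 and CD86 were well above background on all 9 arrays, and SIRPA on 3 double positive, 3 CD4 and 2 CD8 arrays. In the same order LYZ was on 3, 1 and 3, CYBB on 3, 2 and 1, S100A12 on 1, 3 and 2 and CD14 on 2, 2 and 1. CD163, SPI1, CEBPB and VCAN were on 1 array each, and S100A8, S100A9, TLR2 and TLR4 on none of the 9. The summed level of those 15 genes was 10.4 to 15.5 on the double positive arrays, 5.04 to 7.48 in the CD4 fraction and 5.95 to 15.8 on the CD8 arrays.

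**Figure D4:**
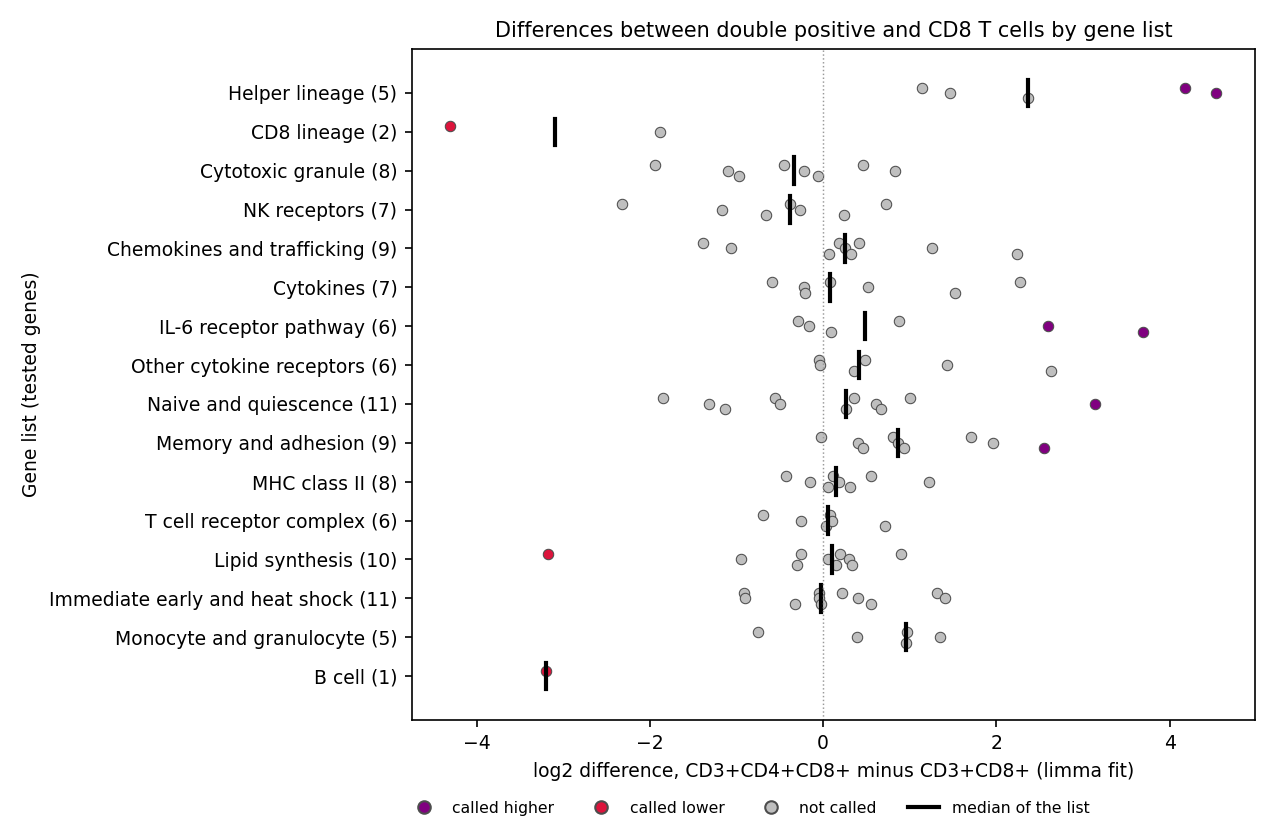
Log2 difference of CD3+CD4+CD8+ minus CD3+CD8+ cells for each tested gene (1 point per gene) of 16 gene lists, with the number of tested genes in brackets and a bar at the median. Coloured points were called: the helper lineage list has its 2 called genes on the right, and the cytotoxic granule, natural killer receptor and MHC class II lists have grey points on both sides of 0.

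The called probes were also set beside the CD4 fraction. Of the 23 higher probes, 15 (65.2%) were within 1 of the CD4 fraction on the log2 scale, against 92.5% of all tested probes, and none was called against it, where 0.24% of all probes were called higher and 0.0454% lower. Of the 34 lower probes, 11 (32.4%) were within 1 of the CD4 fraction, and 7 of these were well above background on at least 1 array of either fraction, CD79A among them. CD96 and UCHL1 had no array well above background in either fraction, so no difference can be read for them. Of the 34 lower probes, 5 were called lower than in the CD4 fraction.

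Of the 36 called probes without a gene name, those with the largest fitted differences are given, a rank that counts signals below background. The largest fitted falls were of the probe A_72_P086236, which carries no accession, and of a probe for NM_213762. The first stood at 1.16, 1.94 and 1.79 on the CD8 arrays and was not well above background on any double positive array, at least 11.9-fold lower (adjusted p = 0.000818). The second stood at 2.80, 2.90 and 3.36 on the CD8 arrays and at -4.42, -2.19 and -0.28 on the double positive arrays, 2 of 3 well above background, a fitted difference of -5.32 (SE 0.83, adjusted p = 0.0208), and another probe of NM_213762 was called lower too. The largest fitted rises were of ENSSSCT00000029989, at 3.25, 2.26 and 2.76 against -0.41, -2.68 and -2.44 (4.60, SE 0.62, adjusted p = 0.00868), and of AJ957734, at 1.20, 1.53 and -0.20 with no CD8 array well above background, at least 4.74-fold higher (adjusted p = 0.0109). All 4 were without overlap between the fractions.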

How the data were processed

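RNA of 9 sorted samples was amplified, labelled with Cy3 and hybridised to 1-colour porcine arrays, per the labels' protocols. Per the file headers, the scanner files come from Agilent Feature Extraction 11.0.1.1, and the deposited processed signal used here is an intensity (linear scale), corrected for background but not normalized between arrays. The authors' deposited table holds log2 values with identical quantiles in each column (each median 2.60). It matches the scanner files but for the CD8 columns, whose numbers 1, 2 and 3 follow scanner arrays 3, 1 and 2, and it served as an alternative. Other deposited columns used were flags and probe names.

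Control spots and 1 to 12 outlier spots per array were left out, no spot was saturated, and log2 signals were set to each array's 75th percentile. Tested probes were well above background on all 3 double positive or all 3 CD8 arrays, with at least 2 values in every fraction. Versionless accessions named 6730 probes (15.4%) for 3052 genes. A gene is its called probe with the highest mean over all arrays, or its tested probe where none was called. Arrays limit the precision by their number.

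limma 3.58.1 in R 4.3.3 (lmFit, eBayes with a variance trend, two-sided, Benjamini-Hochberg over all tested probes, threshold 0.05) was fitted to all 9 arrays without a block. Intervals are at 95%. On simulated data limma called 36 of 100 probes changed by 2 and 88 of 100 changed by 4 on the log2 scale, of 15409, with 3 false calls. The simulated errors were normal and independent between arrays, without slide effects or a background floor, so these rates need not hold for the real arrays. Deviations of same-numbered double positive and CD8 arrays correlated at 0.27, 0.34 and 0.34, although pairs 2 and 3 also share a slide. For double positive with CD4 arrays the values were 0.31, -0.08 and 0.66, and for CD4 with CD8 arrays -0.04, 0.15 and 0.39. The numbers served as a block in alternatives only, and whether they pair the arrays is not known. Genes named were the sorting markers and CD3 chains, called genes without overlap, called list members with up to 4 of the smallest p, and 2 unnamed probes per direction. ADGRG1, S1PR5, LGALS1, SLA-DRA, KLF2, KIT, ATP6V1G2, CD9, ICOS and genes cited only for detection were chosen after their values were seen. The fractions and gene lists were chosen with earlier results of these data known. Alternatives varied the arrays in the fit, blocks, background correction (normexp with offset 50, on the median spot signal because no mean signal was found), scaling, filter and variance trend, or left out 1 array. A few genes of the lists are not reported here by name.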

Additional observations from a re-analysis of the deposited data

How the results depend on the processing

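The 57 called probes became 31 with only the 6 arrays, 86 with the replicate block, 72 with that block on 6 arrays (an alternative chosen after seeing the data), 39 with the block numbered as in the processed table, 2 with the slide block, 8 with normexp, 27 with the percentile of probes detected on all 9 arrays, 5 of 11651 probes above background on all 6 arrays, 87 without a filter and 3 to 57 with 1 array left out. Quantile scaling (56), the processed table (47), the filter over all fractions (50) and no variance trend (65) stayed within 1.5 times. None of the 15 called genes reversed under any of these. With 1 array left out this was fixed in advance, because their double positive and CD8 arrays did not overlap. It was also fixed with only the 6 arrays, the replicate blocks, the filters and no variance trend, which left the fitted differences as they were. Only the slide block, normexp, the scalings and the processed table could have turned a sign. Quantile scaling kept 13 of the calls, the values of the processed table kept 11 and normexp kept 1, the last adding an offset of 50 that exceeds the 75th percentile signal of each double positive and CD8 array. The replicate block numbered by the labels lost UCHL1 and LIMA1 and no other gene's call, and by the numbering of the processed table it lost ANXA2, CD79A, CDH1, IL6ST and SCD. Which numbering is right is not known here.

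The helper lineage median was 1.49 with normexp, 1.68 without a filter and 1.60 to 3.14 with 1 array left out, and the CD8 lineage median -1.40 with normexp and -1.88 with the filter on 6 arrays. Detection counts, which can only stay or rise with 1 array left out, were 62 to 165 and 215 to 885. Of uncalled values, signs turned with the slide block for ADGRG1 (-0.31), S1PR5 (-0.35) and CD3E (-0.10), with normexp for CD247 (0.0007), with the filter on 6 arrays for the interleukin 6 receptor list (-0.037) and without a filter for the monocyte and granulocyte list (-0.29). With 1 array left out the differences ran from below to above 0 for ADGRG1 (-0.33 to 0.49), S1PR5 (-0.33 to 0.85), CD3E (-0.19 to 0.50), KLF2 (-0.31 to 0.61), IL12RB1 (-0.12 to 1.07), SLA-DMA (-0.058 to 0.92), SLA-DQA1 (-0.19 to 0.74), SLA-DRA (-0.73 to 0.15), TNFSF10 (-0.16 to 0.88) and the naive and quiescence list (-0.31 to 0.50). The cause of these changes was not tested. Scalings moved the median of all tested probes from -0.02 to 0.03. Double positive and CD8 arrays had 33.9% to 45.9% of probes well above background, which leaves dim genes as bounds.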
